A study of Homo sapiens
Mus musculus with 24 samples.

Results

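RB1, SMAD4, EGFR and CDKN2A are human genes that are deleted or amplified in some of the commonly used triple-negative breast cancer cell lines. They were listed by symbol in order to ask, library by library, whether the tumors of the control mice held the same human cells as the other tumors. Of the 4 listed genes, 3 had a row among the 18880 genes of the human table, and no value was found there for CDKN2A. The genes were chosen by name and not by a threshold, but the list was selected on the earlier measured distance of control libraries from the others in their human gene counts, so the values of these genes in the control group against the other groups are given as a description without a test.

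MDA-MB-231 (written MDAMB231 in the labels) is a human triple-negative breast adenocarcinoma line, and its cells were injected subcutaneously into female B6/Rag1KO mice, which lack mature T and B cells. By the labels each mouse was 14 weeks old at injection, and mice with tumors of about 200 mm3 were assigned to an intervention. All mice of CTRL, Chemo, MC and MC + Chemo were fed a high-fat diet, and treatment lasted 4 weeks. RNA of each excised tumor was sequenced as 3′ tags, and reads were counted separately against the human and the murine genome. CTRL (n = 4) received saline, Chemo (n = 5) received weekly doxorubicin (2 mg/kg) and cyclophosphamide (100 mg/kg), MC (n = 5) received a diet with 0.6% moringa seed extract concentrate, and MC + Chemo (n = 6) received both. Lean (n = 4) was a diet control without a high-fat diet or intervention. A library is named here by its group and mouse number, and each is the tumor of 1 mouse. By the labels all mice received cells of the same established line. By design, therefore, the mice are replicates of the host and of the treatment and not of the tumor's origin. The human counts ran from 7796231 to 17621273 per library and made up 47.8% to 74.0% of human and murine counts together. The labels of MC + Chemo 5 disagree on its group, and it was placed by its title.

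The retinoblastoma protein encoded by RB1 holds E2F transcription factors in check until cyclin D with CDK4 or CDK6 phosphorylates it, and CDKN2A encodes both p16INK4a, which inhibits CDK4 and CDK6, and ARF, an inhibitor of MDM2. SMAD4 is the shared partner of the receptor-activated SMADs in TGF-β and BMP signaling, and EGFR is the receptor for EGF, TGF-α and amphiregulin. As background on the lines, MDA-MB-231 is known for homozygous loss of CDKN2A, for retained RB1 and SMAD4 and for a mesenchymal expression pattern without E-cadherin, whereas MDA-MB-468 is known for loss of RB1 and SMAD4 and for amplified EGFR.

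Before the listed genes, the libraries were compared with the usual description of the labelled cell line on marker genes, and 3 libraries stood apart. CDH1, which encodes E-cadherin, was at 2.73 normalized counts in CTRL 17 (3 reads), at 312 in CTRL 44 and at 633 in Lean 24, while the other 21 libraries held 1656 to 4472. EPCAM, an epithelial adhesion protein, followed the same order, with 73.8, 552 and 1207 in these 3 libraries. VIM, the mesenchymal intermediate filament vimentin, was at 71918 in CTRL 17, 50209 in CTRL 44 and 24619 in Lean 24, and at 4402 to 21956 in the other libraries. A high CDH1 level goes against the usual description of MDA-MB-231. For this marker, 21 libraries and, to a lesser degree, CTRL 44 and Lean 24 departed from the description of the labelled line. Their marker pattern was mixed, since VIM was at 4402 normalized counts or more in each of them. No reference profile of the line was compared. These labels are therefore used here as names only.

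The epithelial list was low as a whole in these libraries, and the mesenchymal list was mixed. Of 30 epithelial markers of breast cancer lines, 29 were lowest of the 24 libraries in CTRL 17, and the median epithelial marker stood at 1.60% of its 24-library median there, at 17.4% in CTRL 44 and at 33.1% in Lean 24. RAB25, KRT6B, PRSS8 and OVOL1, all typical of epithelial cells, had 0 reads in CTRL 17, which allows up to 2.73 normalized counts (3 reads, counting error only). The median of 24 mesenchymal markers stood at 124%, 184% and 140% in the same 3 libraries and at 128% in MC 41, with ZEB1, a repressor of epithelial genes, at 1344, 1376 and 568 normalized counts against 70.8 to 420.1 elsewhere. Of these 24 markers, 6 were highest and 3 lowest of the 24 libraries in CTRL 17, the latter being fibronectin (FN1, 7906 normalized counts), N-cadherin (CDH2, 29.2) and the urokinase receptor gene PLAUR (4158). On the first principal component of the human table, computed without the listed genes and holding 45.4% of the variance, CTRL 17 lay at 137, CTRL 44 at 91.1, Lean 24 at 46.3 and MC 6 at 15.1, while the other libraries lay between -33.9 and 4.2. Of 8 human blood and vessel markers 6 had a row, and the vessel genes were low everywhere, with PECAM1 at 5.00 to 68.2 and CDH5 at 2.24 to 50.9 normalized counts. PTPRC, the pan-leukocyte CD45 gene, ran from 54.6 to 619 in the human table although cells of a breast line had been injected, and its source was not tested.

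In contrast to these markers, RB1 (ENSG00000139687), SMAD4 (ENSG00000141646) and EGFR (ENSG00000146648) were well above the detection limit in all 24 libraries, including those that stood apart. RB1 had 120 to 570 reads per library, SMAD4 had 202 to 478 and EGFR had 1557 to 4131. The normalized count used below is the read count divided by the library's size factor. The highest library exceeded the lowest 2.44-fold for RB1, 2.16-fold for SMAD4 and 3.11-fold for EGFR. The median gene of the 12673 human genes with a mean normalized count above 30 had a range of 2.57-fold, and 55.1% of these genes had a wider range than RB1, 67.2% a wider one than SMAD4 and 36.8% a wider one than EGFR. In bulk tumors a change in the number of cells and a change in the RNA per cell cannot be told apart.

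**Figure D1:**
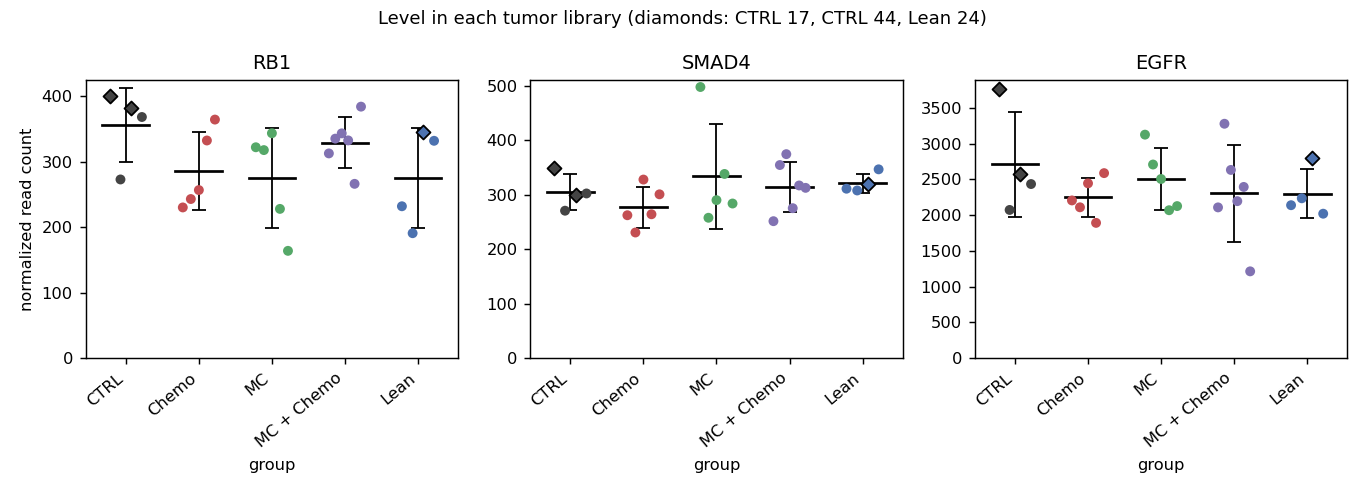
Normalized read counts of RB1, SMAD4 and EGFR (vertical axes, each from 0) in each tumor library by group (horizontal axis); points are single libraries, long bars are group means and whiskers are SD, and diamonds mark CTRL 17, CTRL 44 and Lean 24. The groups overlap in every panel, EGFR is highest in CTRL 17 (3765) and lowest in an MC + Chemo library (1212), and SMAD4 is highest in an MC library (498).

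RB1, the cell cycle brake, was expressed in every CTRL tumor, at 400.1 normalized counts in CTRL 17, 273 in CTRL 31, 382 in CTRL 44 and 368 in CTRL 70 (356 ± 56.9, mean ± SD, n = 4). In Chemo it was at 230.1 in Chemo 19, 243 in Chemo 30, 257 in Chemo 33, 332 in Chemo 34 and 364 in Chemo 67 (285 ± 59.4, n = 5). In both groups RB1 spread over a similar width and the libraries overlapped. The MC libraries held 322 in MC 6, 318 in MC 41, 344 in MC 42, 228 in MC 48 and 164 in MC 59 (275 ± 76.4, n = 5). In MC + Chemo the lowest RB1 value was 266, the median 334 and the highest 384 (329 ± 38.8, n = 6). Lean held 232 in Lean 3, 191 in Lean 21, 346 in Lean 24 and 332 in Lean 54 (275 ± 75.8, n = 4). Thus RB1 was lowest in MC 59 and Lean 21 and highest in CTRL 17 and MC + Chemo 52, and the order of the group means was CTRL, MC + Chemo, Chemo, Lean and MC. Each step in that order was smaller than the larger SD of the neighbouring groups.

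SMAD4, the common SMAD, varied least of the listed genes. Its normalized counts in CTRL were 349.98 in CTRL 17, 271 in CTRL 31, 299 in CTRL 44 and 302 in CTRL 70 (305 ± 32.9, n = 4). In Chemo they were 262 in Chemo 19, 231 in Chemo 30, 328 in Chemo 33, 264 in Chemo 34 and 301 in Chemo 67 (277 ± 37.7, n = 5). SMAD4 was thus present at like levels in treated and untreated high-fat mice. In MC it was at 498 in MC 6 and at 258, 290.1, 338 and 284 in MC 41, MC 42, MC 48 and MC 59 (334 ± 96.4, n = 5). MC + Chemo ran from 251 over a median of 315 to 375 (314 ± 46.3, n = 6), and Lean held 311 in Lean 3, 308 in Lean 21, 319.8 in Lean 24 and 347 in Lean 54 (321 ± 17.6, n = 4). MC 6 lay above all other libraries, at 163% of the SMAD4 24-library median, and Chemo 30 was the lowest. The group means fell in the order MC, Lean, MC + Chemo, CTRL and Chemo, again with steps below the larger SD of the neighbouring groups. The means of Lean (321) and Chemo (277) differed by more than the SD of either group.

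EGFR, the receptor tyrosine kinase, had its highest value in the library with the lowest epithelial markers. The CTRL libraries held 3765 normalized counts in CTRL 17, 2071 in CTRL 31, 2571 in CTRL 44 and 2434 in CTRL 70 (2710.1 ± 734, n = 4). In Chemo the EGFR values were 2204 in Chemo 19, 2108 in Chemo 30, 2443 in Chemo 33, 1890.4 in Chemo 34 and 2586 in Chemo 67 (2246.5 ± 275, n = 5). The Chemo libraries all lay below CTRL 17 and overlapped the other CTRL libraries. MC held 3124.5 in MC 6, 2707 in MC 41, 2504 in MC 42, 2067 in MC 48 and 2125 in MC 59 (2505.5 ± 436, n = 5). MC + Chemo ran from 1212 over a median of 2294 to 3277 (2302.5 ± 679, n = 6). Lean held 2138 in Lean 3, 2234 in Lean 21, 2798 in Lean 24 and 2019 in Lean 54 (2297 ± 346, n = 4). The order of the means was CTRL, MC, MC + Chemo, Lean and Chemo, with steps below the larger SD of neighbouring groups. Without CTRL 17 the CTRL mean of EGFR was 2358.5.

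**Figure D2:**
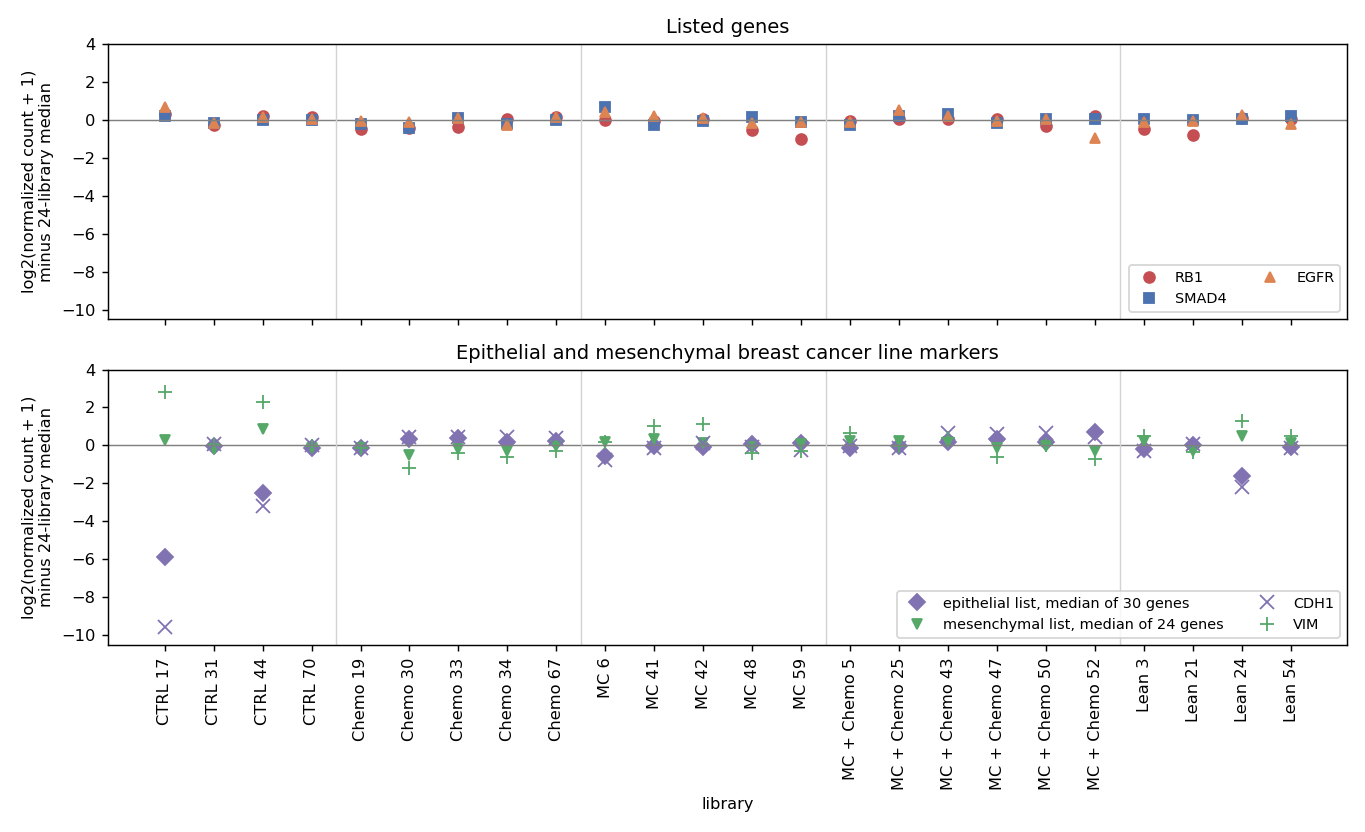
Deviation of log2(normalized count + 1) from the 24-library median (vertical axis, same scale in both panels) for every library (horizontal axis, ordered by group); the upper panel shows RB1, SMAD4 and EGFR, and the lower panel shows CDH1, VIM and the medians of the epithelial and mesenchymal marker lists. The epithelial median falls to -5.89 in CTRL 17, -2.52 in CTRL 44 and -1.59 in Lean 24, while the listed genes stay between -0.99 (RB1 in MC 59) and 0.70 (SMAD4 in MC 6 and EGFR in CTRL 17).

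In the libraries that stood apart, the listed genes lay at 97.9% to 163% of their 24-library medians, with EGFR in CTRL 17 the furthest away. RB1 was at 122% of its 24-library median in CTRL 17, 117% in CTRL 44 and 106% in Lean 24. SMAD4 was at 115%, 97.9% and 105%, and EGFR at 163%, 111% and 121%, in the same order. None of the 3 transcripts was therefore absent or at a low level in these libraries, and DNA was not measured. RB1 and EGFR were each at their highest in CTRL 17, and 29.8% of the 12673 genes had their lowest or highest value in that library. Of these genes, 58.5% deviated further from their median in CTRL 17 than RB1, 69.8% further than SMAD4 and 26.8% further than EGFR. In CTRL 44 the shares were 70.5%, 94.6% and 79.1%. The larger departures lay in other libraries. RB1 in MC 59 was at 50.1% of its median, where 1.33% of genes deviated further, and EGFR in MC + Chemo 52 was at 52.4%, where 10.4% deviated further. MC + Chemo 52 held the lowest or highest value of 30.5% of genes and had the highest EPCAM level (5399), and its median epithelial marker stood at 164% of the 24-library median.

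**Figure D3:**
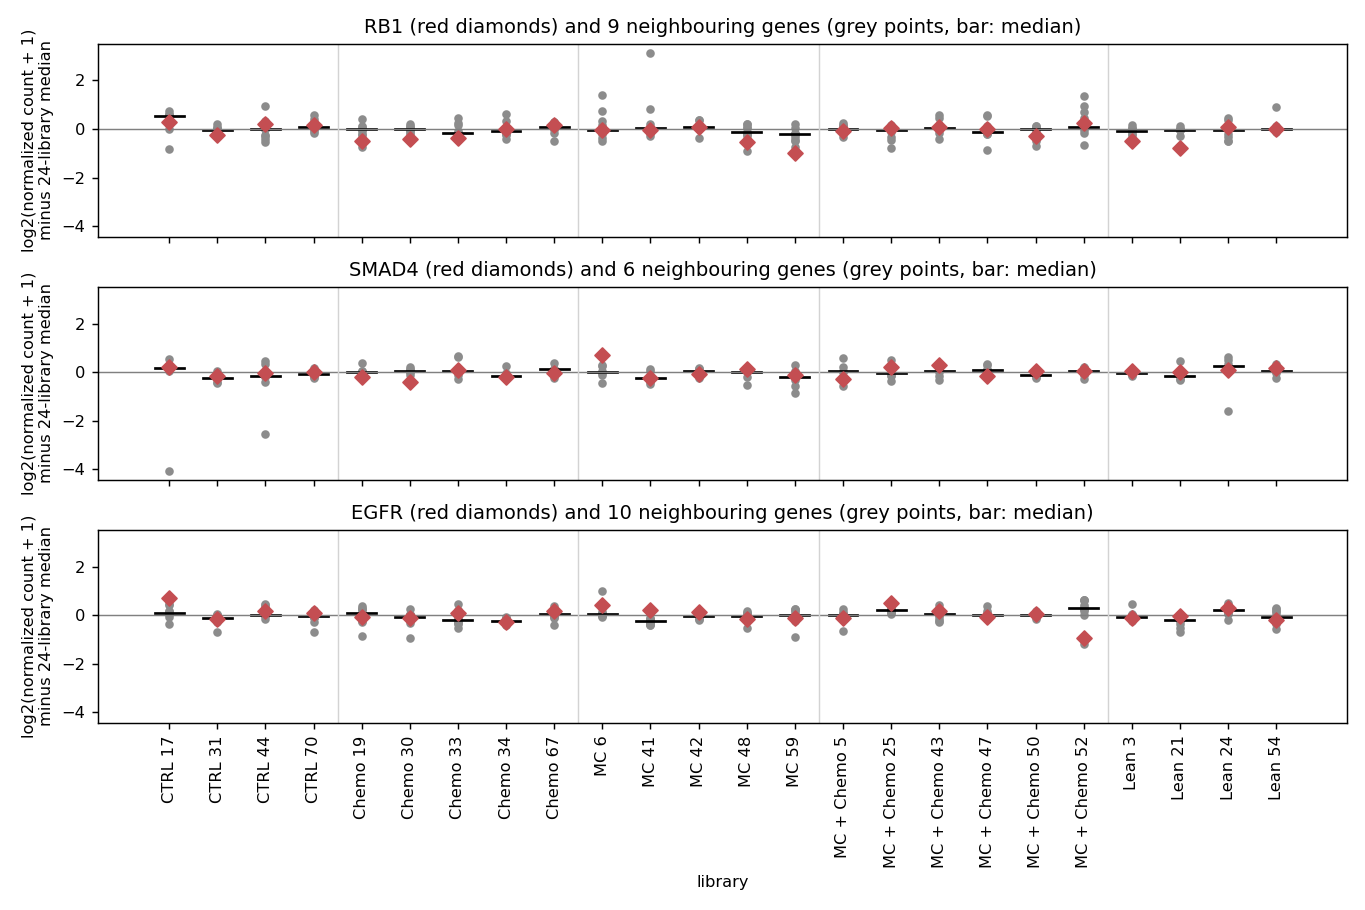
Deviation of log2(normalized count + 1) from the 24-library median (vertical axis) for RB1, SMAD4 and EGFR (red diamonds) and for the genes near each of them with a mean normalized count above 30 (grey points; black bar: their median) in every library (horizontal axis). The medians of the neighbours lie between -0.26 (EGFR neighbours in Chemo 34) and 0.55 (RB1 neighbours in CTRL 17). In MC + Chemo 52, where EGFR is lowest, the median of its neighbours is 0.29. The lowest grey point of the SMAD4 panel is MYO5B in CTRL 17.

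Because a gain or loss of DNA usually covers adjacent genes, protein-coding genes within 1 Mb of each listed gene were also examined. Their order was taken from a GRCh38.p14 gene table, and no coordinates are given because the human build of the counts is not given in the sources used here. Near RB1, 10 of 14 such genes had a row, and 9 had a mean above 30. Their median in CTRL 17 was 147% of the 24-library median (range 57.0% to 169.7%), against 100.5% in CTRL 44 and 98.4% in Lean 24. ITM2B, which encodes an integral membrane protein, was lowest in CTRL 17 at 1485 normalized counts, with 2565, 1948 and 2307 in CTRL 31, CTRL 44 and CTRL 70. LPAR6, which lies within an intron of RB1, had group means of 1.58 to 3.72 normalized counts. Near SMAD4, 8 of 10 genes had a row, and the median of 6 was 112%, 89.2% and 120.3% in CTRL 17, CTRL 44 and Lean 24. MYO5B, an unconventional myosin of epithelial membrane traffic, was the exception, with 15.5 normalized counts in CTRL 17, 46.6 in CTRL 44 and 89.5 in Lean 24, against 185 to 421 elsewhere. Near EGFR, 11 of 15 genes had a row, and the median of 10 was 106%, 101.5% and 115%. SEC61G and LANCL2, which lie close to EGFR and are often amplified with it, were at 2653 and 179.6 normalized counts in CTRL 17 and had 24-library medians of 1954 and 175. No neighbourhood was therefore low as a block in these libraries, and the highest median was that of the RB1 neighbours in CTRL 17.

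No value was found for CDKN2A itself, nor for MTAP or CDKN2B, which are commonly deleted with it. Of 22 protein-coding genes within 1 Mb of CDKN2A, 3 had a row, and none of those had a mean above 30. KLHL9 had group means of 19.1 to 40.1 normalized counts, FOCAD 3.40 to 8.37 and HACD4 5.13 to 8.44. These are low values, and most of the others are type I interferon genes, which are rarely transcribed in unstimulated cells. Every gene of the human table sums to at least 72 reads over the 24 libraries. A gene with fewer reads would have no row. Rows were looked up by symbol, and 5259 of 18880 human genes have none, so a row without a symbol would be missed. Loss or silence of CDKN2A cannot be told apart here from a low level or from an unnamed row. In any library, therefore, CDKN2A is not analysed here.

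The tumors also hold murine host RNA, and the murine orthologs were read beside the human genes. Human reads made up 46.9% to 85.5% of RB1 plus Rb1 reads (median 64.0%), 37.4% to 71.9% of SMAD4 plus Smad4 reads (median 47.8%) and 83.7% to 97.8% of EGFR plus Egfr reads (median 90.9%). Murine Rb1 averaged 178 ± 18.5 normalized counts in CTRL (n = 4), 162 ± 22.4 in Chemo (n = 5), 169 ± 62.0 in MC (n = 5), 147 ± 20.5 in MC + Chemo (n = 6) and 141 ± 9.39 in Lean (n = 4). Smad4 ran from a mean of 277 ± 38.3 in MC to 346 ± 43.5 in CTRL, and Egfr from 209.7 ± 34.7 in MC to 249 ± 62.9 in CTRL. Murine Rb1, Smad4 and Egfr therefore had group means within a narrow span too. Those of murine Cdkn2a ran more widely, from 92.4 ± 86.4 in CTRL to 187 ± 46.7 in Chemo. Murine Cdkn2a was present, at 7.68 normalized counts in CTRL 17 (8 reads), 212 in CTRL 31, 65.4 in CTRL 44 and 84.2 in CTRL 70. In Lean it was at 201 in Lean 3, 254 in Lean 21, 77.6 in Lean 24 and 148 in Lean 54, and in MC at 90.5 in MC 6 and 93.4 to 213 in the other libraries. In Chemo it lay between 153.9 and 264, and in MC + Chemo between 64.8 and 246.0. CTRL 17 was thus lowest for murine Cdkn2a as well as for the human epithelial markers, whereas MC + Chemo 5 and MC + Chemo 43, with CDH1 inside the usual range, lay close to CTRL 44. Whether reads of 1 species were counted for the other was not tested.

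The question of whether the control tumors differed from the treated ones was put for all human genes with edgeR, and the listed genes are described from the same fit. In MC + Chemo compared to CTRL, 263 of 16434 genes (1.6%) passed an adjusted p below 0.05, a mean normalized count above 30 and a fold change above 1.5. Without CTRL 17, CTRL 44 and Lean 24 together the number was 0, but this left only CTRL 31 and CTRL 70 in CTRL. At an unadjusted p below 0.05 in edgeR there were 2005 of 16977 genes in that setting, against 3737 of 16434 with all libraries. With 1 library left out the number called was 0 without CTRL 17, without CTRL 44, and also without MC + Chemo 47 or 52. It was 1162 without CTRL 31 and 878 without CTRL 70. In the other contrasts 0.0% of genes passed in edgeR, although leaving out CTRL 31 or CTRL 70 gave 1171 and 613 in Chemo compared to CTRL. At an unadjusted p below 0.05 there were 2989 genes in Chemo and 1762 in MC compared to CTRL, and DESeq2 called 479 and 10. RB1 had log2 differences from CTRL of -0.33 (SE 0.19) in Chemo, -0.38 (SE 0.19) in MC, -0.13 (SE 0.19) in MC + Chemo and -0.38 (SE 0.22) in Lean. Its mean in each of these groups was lower than the CTRL mean, and with the 3 libraries left out the differences became -0.18, -0.23, 0.02 and -0.36. SMAD4 had differences of -0.15 (SE 0.17), 0.12 (SE 0.17), 0.02 (SE 0.17) and 0.06 (SE 0.17), and without the 3 libraries -0.06, 0.21, 0.12 and 0.16. EGFR had -0.28 (SE 0.21), -0.12 (SE 0.22), -0.25 (SE 0.21) and -0.25 (SE 0.22), and without the 3 libraries -0.02, 0.15, 0.02 and -0.08. Leaving these libraries out thus brought the EGFR difference closer to 0 in Chemo, MC + Chemo and Lean and turned its sign in MC and MC + Chemo. For no listed gene did CTRL lie apart from another group without overlap, while 3.24% of genes did so for Chemo, 1.47% for MC, 5.26% for MC + Chemo and 2.21% for Lean.

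**Figure D4:**
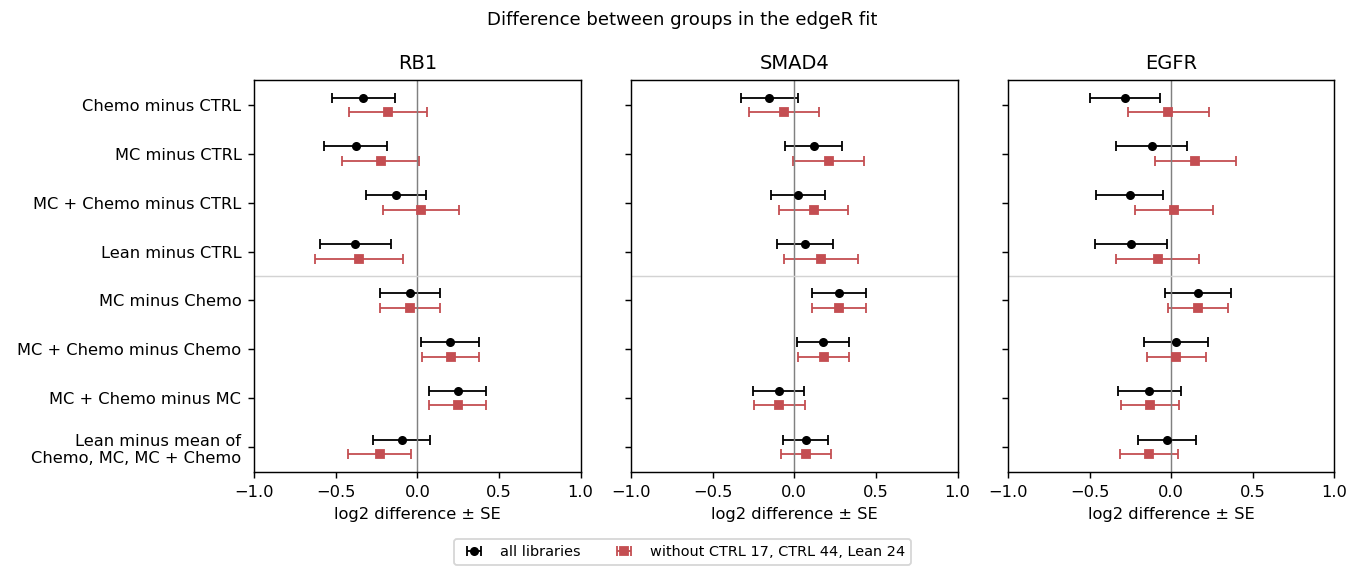
Log2 difference between groups (horizontal axis, ± SE from the edgeR fit) of RB1, SMAD4 and EGFR in 8 contrasts (vertical axis; those with CTRL above the grey line), with all libraries (black circles) and without CTRL 17, CTRL 44 and Lean 24 (red squares). Without these libraries the differences of EGFR from CTRL are closer to 0 in Chemo, MC + Chemo and Lean. Their sign turns in MC (from -0.12 to 0.15) and in MC + Chemo. In the contrasts below the line the 2 sets lie close together except for RB1 and EGFR in Lean.

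The contrasts without CTRL were not used to choose the genes, and the listed genes were tested there. The fits still included the CTRL libraries, so these also entered the estimate of the spread between mice. In 12 tests, 0 were called, the lowest adjusted p of the edgeR quasi-likelihood test being 0.707, and 0.0% of all genes were called in the same contrasts. At an unadjusted p below 0.05 there were 840 genes in MC minus Chemo, 1713 in MC + Chemo minus Chemo, 1306 in MC + Chemo minus MC and 653 in Lean minus the mean of the 3 treated groups, and DESeq2 called 9, 9, 4 and 0. In edgeR without CTRL 17, CTRL 44 and Lean 24 these numbers were 1696, 2485, 1979 and 743, with 0 genes called in each contrast. The largest difference was that of SMAD4 in MC compared to Chemo, 0.27 on the log2 scale (SE 0.16, 95% interval -0.07 to 0.61, adjusted p = 0.946 in edgeR). RB1 in MC + Chemo compared to MC differed by 0.25 (SE 0.18, interval -0.12 to 0.61, adjusted p = 0.730 in edgeR), and compared to Chemo by 0.20 (SE 0.18, interval -0.17 to 0.57, adjusted p = 0.707 in edgeR). EGFR differed most in MC compared to Chemo, by 0.16 (SE 0.20, interval -0.26 to 0.59, adjusted p = 0.979 in edgeR). The 95% interval of each of these differences included 0. Across the 12 tests the 95% intervals reached from 0.689-fold (EGFR, MC + Chemo compared to MC) to 1.53-fold (SMAD4, MC compared to Chemo). In Lean, compared to the mean of Chemo, MC and MC + Chemo, the differences were -0.10 (SE 0.17) for RB1, 0.07 (SE 0.14) for SMAD4 and -0.03 (SE 0.18) for EGFR. Groups without overlap were found for no listed gene in MC or MC + Chemo compared to Chemo or MC, where 1.73%, 1.87% and 1.31% of all genes had them, nor in Lean compared to the treated groups, where 0.0241% had them.

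Genes of the same pathways were read from lists in the MC + Chemo to CTRL contrast, where 0.456% of all genes were called higher and 1.14% lower and the median log2 difference was -0.02. This contrast holds the CTRL libraries whose distance from the others was known when the lists were chosen, so the counts that follow are a description and no evidence about a list. Of 25 RB pathway genes, 2 were called higher and none lower (median -0.08). Those were CDKN1A, the p21 inhibitor of cyclin-dependent kinases (log2 0.82), and CCND3, the cyclin D3 that activates CDK4 and CDK6 (0.69). CDKN1A was at 891 and 859.8 normalized counts in CTRL 17 and CTRL 44 and at 1912 and 2276.5 in CTRL 31 and CTRL 70. E2F7, a repressive E2F, had a log2 difference of -1.52 and did not pass the test. It was at 943 in CTRL 17 and 843 in CTRL 44 against 232 and 267 in the other CTRL tumors. CDKN2C, the p18 inhibitor of CDK4 and CDK6, differed by -0.71 without passing. In edgeR none of these genes was called without CTRL 17, CTRL 44 and Lean 24, where 0 of 16977 genes were called.

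Of 31 TGF-β and SMAD genes, none was called higher and 1 lower (median -0.04). BMP2, a ligand of the BMP receptors that signal through SMAD4, had a log2 difference of -2.06, with 314 normalized counts in CTRL 17, 184 in CTRL 44, 69.3 in CTRL 31 and 58.2 in CTRL 70. INHBB, which encodes an activin and inhibin subunit, was at 40.1 and 186 in CTRL 17 and CTRL 44 and at 1930.5 and 1840.1 in CTRL 31 and CTRL 70 (log2 0.70, not called). INHBA, the other such subunit, was at 1507.5 and 849 in CTRL 17 and CTRL 44 against 9679.6 and 10991 (log2 0.89, not called). ID3, a target of BMP signaling, had a log2 difference of 1.10 and was not called. In the same CTRL tumors SMAD4 lay between 271 and 349.98.

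Of 21 genes of the EGFR family, its ligands and its regulators, none was called (median -0.08). ERBB3, the kinase-impaired family member, was at 28.3 normalized counts in CTRL 17, 135 in CTRL 44 and 240.3 in Lean 24 against 562 to 1251 elsewhere, although EGFR was highest in CTRL 17. The ligand gene AREG, encoding amphiregulin, was at 374 and 848 in CTRL 17 and CTRL 44 and at 1663 and 1264 in CTRL 31 and CTRL 70 (log2 1.03, not called). SPRY4 and SPRY2, feedback inhibitors of receptor tyrosine kinase signaling, differed by -1.25 and -1.02, and BTC, the betacellulin ligand, by 1.18, and none of them passed the test. EGFR itself differed by -0.25 in this contrast.

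Of 8 genes of the ARF axis, 1 was called higher, which was CDKN1A again, and none lower (median 0.15). GDF15, a stress-induced cytokine, had a log2 difference of 1.42 and did not pass. MDM2, the ubiquitin ligase that ARF inhibits, differed by -0.01. Of 14 other genes altered in triple-negative lines, none was called (median -0.16). BRCA2, NF2, PIK3R1 and NF1 differed by -0.69, -0.62, -0.49 and -0.47, and none of them passed. Of 6 receptor status genes 5 had a row and none was called (median 0.26). ESR1, the estrogen receptor gene, was low throughout, at 2.59 to 88.3, and ERBB2, which encodes HER2, was at 192 to 769. The lists of the ARF axis, of other altered genes and of receptor status therefore held no call apart from CDKN1A.

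The marker lists and the neighbouring genes are described in the same contrast, where 0.456% of all genes were called higher and 1.14% lower. For the 30 epithelial markers the median log2 difference was 1.06, and 1 was called higher, CLDN7 of the tight junctions (1.30). For the 24 mesenchymal markers the median was -0.43, and ZEB1 (-1.97) and VIM (-1.78) were called lower and PLAUR (0.74) higher. Of 9 RB1 neighbours, 1 was called higher, ITM2B (0.72), while none of 8 SMAD4 neighbours and none of 10 EGFR neighbours was called. The 6 blood and vessel markers had no call and a median of -0.17. Without CTRL 17, CTRL 44 and Lean 24, 0 of 16977 genes were called in edgeR. Each of these counts was then 0 whatever the list, so that setting says nothing about these lists in particular.

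The pattern of each listed gene over the 24 libraries was compared with that of 11236 named genes with a mean above 30, as Pearson's r of log2(normalized count + 1), given as a description because the libraries share depth and scaling. The genes most like RB1 were APEX1 (r = 0.90), RAP2A, CCPG1, C1orf174 and ZFAND3, and those most opposed were MTSS2 (r = -0.81), PARP6, ARHGEF17, TRIM56 and CILP2. For SMAD4 the nearest were TNC (r = 0.70), CDKN1C, ZNF12, FAM53C and ZBTB6, and the most opposed PI4K2A (r = -0.74), ENTPD6, KLHDC9, VSIG10 and GOLM1. For EGFR they were ZNF654 (r = 0.85), TTC37, ATP7A, PFKFB4 and EPG5, and KIF9 (r = -0.76), BTBD6, PIGX, DNAL4 and HNMT. The listed genes were less alike among themselves, with r = 0.22 between RB1 and SMAD4, 0.23 between RB1 and EGFR and 0.41 between SMAD4 and EGFR.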

How the data were processed

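Tumor RNA of 24 mice was sequenced with the QuantSeq 3′ kit (50 base forward reads). The authors aligned reads with the BlueBee software and deposited a table of read counts per gene for each genome, and the deposited normalized signal tables hold these counts divided by DESeq2 size factors over all 24 libraries. The submitters' processing notes name GRCm38 and DESeq2 1.22.2, and the human build is not given in the sources used here. How reads matching both genomes were treated is not given there either. Genes with fewer than 72 reads in all have no row, and 5259 of 18880 human genes have no symbol.

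Counts were fitted with edgeR 4.0.16 (limma 3.58.1, R 4.3.3) using TMM scaling, the default low-count filter, the quasi-likelihood F test and Benjamini-Hochberg adjustment over all genes tested. The 20 high-fat libraries shared 1 fit, and Lean was compared in a fit to all 24. Calls needed an adjusted p below 0.05, a mean normalized count above 30 and a fold change above 1.5. The fit was tested on simulated data. Neighbours were all protein-coding genes within 1 Mb in the GRCh38.p14 table. Named genes were the listed genes, their orthologs and neighbours, up to 4 genes per list with the largest difference between MC + Chemo and CTRL, and the 5 most alike and most opposed genes per listed gene. Other list genes could be named where their list is described. The members and lists were chosen with earlier results of these data known. Alternatives were other scaling, no filter, DESeq2 1.42.0, MC + Chemo 5 as MC, leaving out 3 libraries with an extra RNA cleanup (Lean 3, MC 41 and MC 42), and leaving out single libraries. Leaving out CTRL 17, CTRL 44 and Lean 24 together was chosen after seeing the data. No pair of libraries was identical. Mice are separate animals, so p-values set the difference between groups against the spread between mice. Results on some listed genes are not reported here.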

Additional observations from a re-analysis of the deposited data

Results flagged for a closer look

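Of 50 groups of libraries checked for a library far from the rest of its group, 4 had one, and chance gives about 1 in 20. Murine Rb1 was high in Chemo 33, at 7.66 on the log2(normalized count + 1) scale, with the other Chemo libraries at 7.19 to 7.32. Murine Rb1 was low in MC + Chemo 25, at 6.77, with the others at 7.21 to 7.38. The median deviation of the epithelial markers from their 24-library medians was -0.55 (log2) in MC 6, with the other MC libraries at -0.08 to 0.11. It was -1.59 in Lean 24, with the other Lean libraries at -0.20 to 0.03. In MC 6, SMAD4 was also at its highest of the 24 libraries (498 normalized counts), and in Lean 24 RB1, SMAD4 and EGFR were at 106%, 105% and 121% of their medians.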

How the results depend on the processing

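No paired analysis was possible because each mouse number occurs once and the groups share none. DESeq2 called 479 genes in Chemo minus CTRL, 10 in MC minus CTRL, 792 in MC + Chemo minus CTRL, 1 in Lean minus CTRL, 9 in MC minus Chemo, 9 in MC + Chemo minus Chemo and 4 in MC + Chemo minus MC. The 263 calls of MC + Chemo minus CTRL became 508 with all 24 libraries in the fit, 111 without the libraries with an extra cleanup and 0 without CTRL 17, CTRL 44 and Lean 24, which leaves CTRL with fewer libraries. With single libraries left out they ran from 0 (leaving out MC + Chemo 52 or 47, or CTRL 44 or 17) to 1162 (leaving out CTRL 31; 878 leaving out CTRL 70; 104, 68 and 79 leaving out MC + Chemo 5, 43 and 50), those of Chemo minus CTRL from 0 to 1171 (without CTRL 31; 613 without CTRL 70), and those of MC minus CTRL and of Lean minus CTRL each from 0 to 1. The cause was not tested.

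No listed gene was called in any setting without CTRL, the lowest adjusted p of edgeR or DESeq2 being 0.495 and the lowest unadjusted p 0.0238. The sign of 16 of 237 such differences turned. With MC + Chemo 5 taken as MC, SMAD4 in MC + Chemo minus MC was 0.0193, and without the libraries with an extra cleanup RB1 and EGFR in Lean minus the treated mean were 0.0498 and 0.0233. With single libraries left out, RB1 in MC minus Chemo ran from -0.1351 to 0.0811, EGFR in MC + Chemo minus Chemo from -0.1093 to 0.1547, SMAD4 in MC + Chemo minus MC from -0.1814 to 0.0901, and RB1 and EGFR in Lean minus the treated mean from -0.2288 to 0.0451 and from -0.1345 to 0.0351. All 114 recomputed group levels of the listed genes moved by less than 1 SD.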
